A study of Mus musculus with 2 samples.

Results

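*Igfbp2*, *Igfbp3*, *Igfbp4*, *Igfbp5*, *Igfbp6* and *Igfbp7*, which encode insulin-like growth factor (IGF) binding proteins, and *Pappa* and *Pappa2*, which encode the pappalysins, were followed through the cell types of the mouse lung. They were chosen by symbol, and all 8 are among the 32285 genes that the files list. IGF1 and IGF2 lie in tissue mostly bound to secreted IGFBPs, which keep them from the IGF1 receptor, store them or carry them. IGFBP2 to IGFBP6 bind IGFs with high affinity, whereas IGFBP7 binds them weakly. The pappalysins are secreted metalloproteases that cut IGFBPs and so free the ligand, stanniocalcins inhibit them, and IGF signalling is known to take part in the growth of alveoli.

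The study asks how *Hhip*, which encodes a Hedgehog-binding antagonist at the cell surface, bears on alveolar development in newborn mice. Single-cell RNA libraries were made from the lungs of 1 control mouse and 1 *Gli1 HHIPCKO* mouse, both at postnatal day 14. Both mice carried *Gli1 CreER/+* and *Hhip flox/flox*, the *Gli1 HHIPCKO* mouse received tamoxifen, and the control mouse received oil on the same schedule. Sorted stromal cells (negative for CD31, CD45 and CD326) and epithelial cells (negative for CD31 and CD45 and, in the paper, positive for CD326) were combined 3:1. Since *Gli1* drives the Cre, recombination is limited to cells that expressed *Gli1* around the time of injection and their descendants, and each class may mix recombined and unrecombined cells. Tamoxifen itself, which the control mouse did not receive, cannot be told apart from the deletion.

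The control library held 43291709 unique molecular identifiers (UMIs, 1 tag per captured molecule) in 10999 cells, and its median cell had 3531 UMIs from 1564 genes. In the *Gli1 HHIPCKO* library there were 52338969 UMIs in 12350 cells, and the median cell had 3720 UMIs from 1699 genes. *Xist* was detected in 0.110% of the 10917 control cells kept and in 56.7% of the 12115 *Gli1 HHIPCKO* cells kept. *Ddx3y*, a Y-linked gene, was detected in 11.9% of the control cells and in 0 of the *Gli1 HHIPCKO* cells. Sex, mouse, treatment and library therefore cannot be told apart in any ratio between the libraries. The libraries shared 193 cell barcodes. The labels name a 3′ kit and the series text a 5′ kit, and either way a UMI count needs no division by gene length.

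Levels are UMIs of a gene per 1000000 UMIs (CPM) summed over the cells of a class in a library. Intervals in parentheses are 95% intervals for counting error alone, exact Poisson for levels and exact binomial for ratios and shares. With 1 mouse per group there was no test, so a gene was called lower or higher where its level differed at least 2-fold between the libraries. Calls were limited to genes with at least 50 UMIs over both libraries in the class. All ratios are log2 of *Gli1 HHIPCKO* over control.

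Clusters were named from 18 marker lists, and 13 classes held at least 100 cells in each library. They were cells like alveolar myofibroblasts (ALMF), ductal myofibroblasts (DMF), peribronchial, adventitial and alveolar fibroblasts, vascular smooth muscle, pericytes, mesothelium, alveolar type 2 (AT2) cells, ciliated cells, endothelium, immune cells and red cells. In the ALMF-like class, all 12 ALMF markers had UMIs in both libraries, and the list summed to 7142 CPM (control) and 6994 CPM (*Gli1 HHIPCKO*), led by *Ltbp2*. In the DMF-like class, all 12 DMF markers had UMIs, with 9026 CPM (control) and 11802 CPM (*Gli1 HHIPCKO*), led by *Aspn* and *Hmcn1*. The peribronchial list summed to 18326 CPM in peribronchial fibroblast-like control cells and to 7221 CPM in *Gli1 HHIPCKO* cells. That list holds smooth muscle genes such as *Cnn1* and *Actc1*, so the class may hold airway smooth muscle cells. A difference in its make-up between the libraries, which would bear on its ratios, was not tested. The weakest name was vascular smooth muscle-like, where 7 of 10 markers in control and 6 of 10 in *Gli1 HHIPCKO* had any UMI and the list summed to 1014 and 1198 CPM. Clusters that fit no name held 21.4% of the control cells kept and 14.1% of the *Gli1 HHIPCKO* cells kept, and they are left out of the class values.

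The 2 myofibroblast classes were made of clusters that each came mostly from 1 library. Of the ALMF-like clusters, that led by *Bmp2*, *Ubash3b* and *Tppp* held 1231 control and 131 *Gli1 HHIPCKO* cells. The cluster led by *Lnx1*, *Nnat* and *Chp2* held 23 and 851, and it scored 0.795 for ALMF and 0.662 for DMF markers. The cluster led by the immediate early genes *Fos* and *Junb* with *Rgs16* held 476 and 84. Of the DMF-like clusters, that led by *Efnb2* and *Enpp2* held 991 control and 19 *Gli1 HHIPCKO* cells. The clusters led by *Ace*, *Ak5* and *Lgr6* and by the immediate early genes *Socs3*, *Ier3* and *Junb* held 16 and 1047, and 11 and 551. Cluster and library thus cannot be told apart in DMF-like cells, whose cells were 1018 in control and 1617 in *Gli1 HHIPCKO*, and only in part in ALMF-like cells, with 1730 and 1066. The ALMF-like cells also carried DMF markers, whose list summed there to 3155 CPM (control) and 5309 CPM (*Gli1 HHIPCKO*). AT2-like clusters were split by library as well, with 69 and 1394, 61 and 757, 877 and 178, 549 and 210, and 360 and 78 control and *Gli1 HHIPCKO* cells. Ratios of the whole AT2-like class thus mix cluster and library, though each of these clusters held at least 50 cells of both libraries.

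*Hhip*, the floxed gene, was lower in the *Gli1 HHIPCKO* library. In DMF-like cells it was at 2428 CPM (control) and 357 CPM (*Gli1 HHIPCKO*), a ratio of -2.76 (-2.84 to -2.69). In peribronchial fibroblast-like cells it was at 2358 and 653 CPM, and in ALMF-like cells at 514 and 194 CPM. The counts cover the whole gene, and reads from the floxed part cannot be separated, so remaining UMIs do not give the share of cells that kept *Hhip*. *Gli1*, a transcriptional readout of Hedgehog signalling, was at 3.05 CPM (control) and 32.1 CPM (*Gli1 HHIPCKO*) DMF-like cells.

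RNA from other cells was present in the droplets. Red cell-like cells, used below for comparison, held *Sftpc* at 48764 CPM (control) and 45517 CPM (*Gli1 HHIPCKO*), and *Hhip* at 120 and 41.3 CPM. *Igfbp3* was at 26.2 CPM (19.7 to 34.2) in control red cell-like cells and at 28.3 CPM (21.1 to 37.1) in *Gli1 HHIPCKO*. *Igfbp4* was there at 164 and 165 CPM, *Igfbp5* at 118 and 77.2 CPM, *Igfbp6* at 82.6 and 105 CPM and *Igfbp7* at 581 and 562 CPM. Stromal classes held far less *Sftpc*, with 2585 and 1228 CPM in DMF-like cells and 1943 and 1267 CPM in ALMF-like cells, and AT2-like cells held *Igfbp3* at 2.38 and 0.439 CPM. The red cell-like *Igfbp3* UMIs, 54 and 52, lay in 22 and 16 cells. Red cell-like values are thus no measure of the background of other classes, which was not estimated.

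Across classes, at the limit of 50 UMIs for a call, more members fell in DMF-like cells than in any other class. No member with enough UMIs for a call rose at least 2-fold under the settings chosen here. Below that limit, *Igfbp6* in endothelial-like cells, *Pappa* in endothelial-like cells and *Pappa2* in AT2-like cells had ratios of 1.96, 1.12 and 1.53. Also below it, *Igfbp2*, *Igfbp3*, *Pappa* and *Pappa2* in peribronchial fibroblast-like cells had ratios of -2.2, -5.44, -1.64 and -3.28. *Igfbp3* fell in the most classes under these settings. Its alveolar fibroblast-like and immune-like calls ended under alternatives, as did the immune-like call of *Igfbp5*. *Igfbp3* and *Igfbp7* were highest in adventitial fibroblast-like cells and *Igfbp5* and *Igfbp6* in mesothelial-like cells, and each stayed within 2-fold there. Of 73 pairs of a member and a class that could be called, 51 had a ratio below 0, while the median ratio of all genes lay between -0.04 and 0.079 in the 13 classes.

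In DMF-like cells, 5 of 8 members tested fell, *Igfbp3*, *Igfbp4*, *Igfbp5*, *Igfbp6* and *Pappa*, beside 2.25% of all 10092 genes tested there that were lower and 3.02% that were higher. *Igfbp6* was low among them, at 49.1 CPM (control) and 17.5 CPM (*Gli1 HHIPCKO*), below its red cell-like level. The members' median ratio was -1.40 and that of all genes -0.021. ALMF-like cells had 1 of 7 lower, *Igfbp3*, beside 1.70% of 10223 genes lower and 2.80% higher. That count was not stable, with 5 members past 2-fold with no cell filter and also without likely doublets. With both classes summed, 2 of 8 were lower, *Igfbp3* and *Pappa*, beside 1.95% of 11170 genes lower and 3.28% higher. In peribronchial fibroblast-like cells, 2 of 4 were lower, *Igfbp4* and *Igfbp5*, beside 2.41% of 5023 genes lower and 2.61% higher, and 3 alternatives ended the call of *Igfbp4*. Alveolar fibroblast-like cells had 1 of 6 lower, *Igfbp3*, beside 1.78% of 9927 genes lower and 2.11% higher. Among adventitial fibroblast-like cells, 1 of 8 was lower, *Igfbp2*, beside 1.39% of 9556 genes lower and 1.75% higher.

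In ciliated-like cells, 2 of 6 members were lower, *Igfbp3* and *Igfbp4*, beside 1.21% of 5931 genes lower and 1.01% higher. Immune-like cells had 2 of 5 lower, *Igfbp3* and *Igfbp5*, beside 3.17% of 6760 genes lower and 1.92% higher. Without likely doublets both calls ended there, and *Igfbp7* was higher instead, with a ratio of 1.21. Endothelial-like cells had 1 of 3 lower, *Igfbp5*, beside 2.42% of 2188 genes lower and 3.61% higher. Whether RNA from other cells took part in these calls was not tested. No member passed 2-fold in mesothelial-like cells (7 tested, beside 1.36% of all genes lower and 2.03% higher) or pericyte-like cells (5 tested, 0.684% and 1.87%). The same held for vascular smooth muscle-like cells (5 tested, 1.02% and 1.87%), AT2-like cells (4 tested, 0.850% and 1.42%) and red cell-like cells (5 tested, 1.74% and 3.79%). The count of AT2-like cells was not stable, with 2 to 5 members past 2-fold under 7 alternatives.

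**Figure D1:**
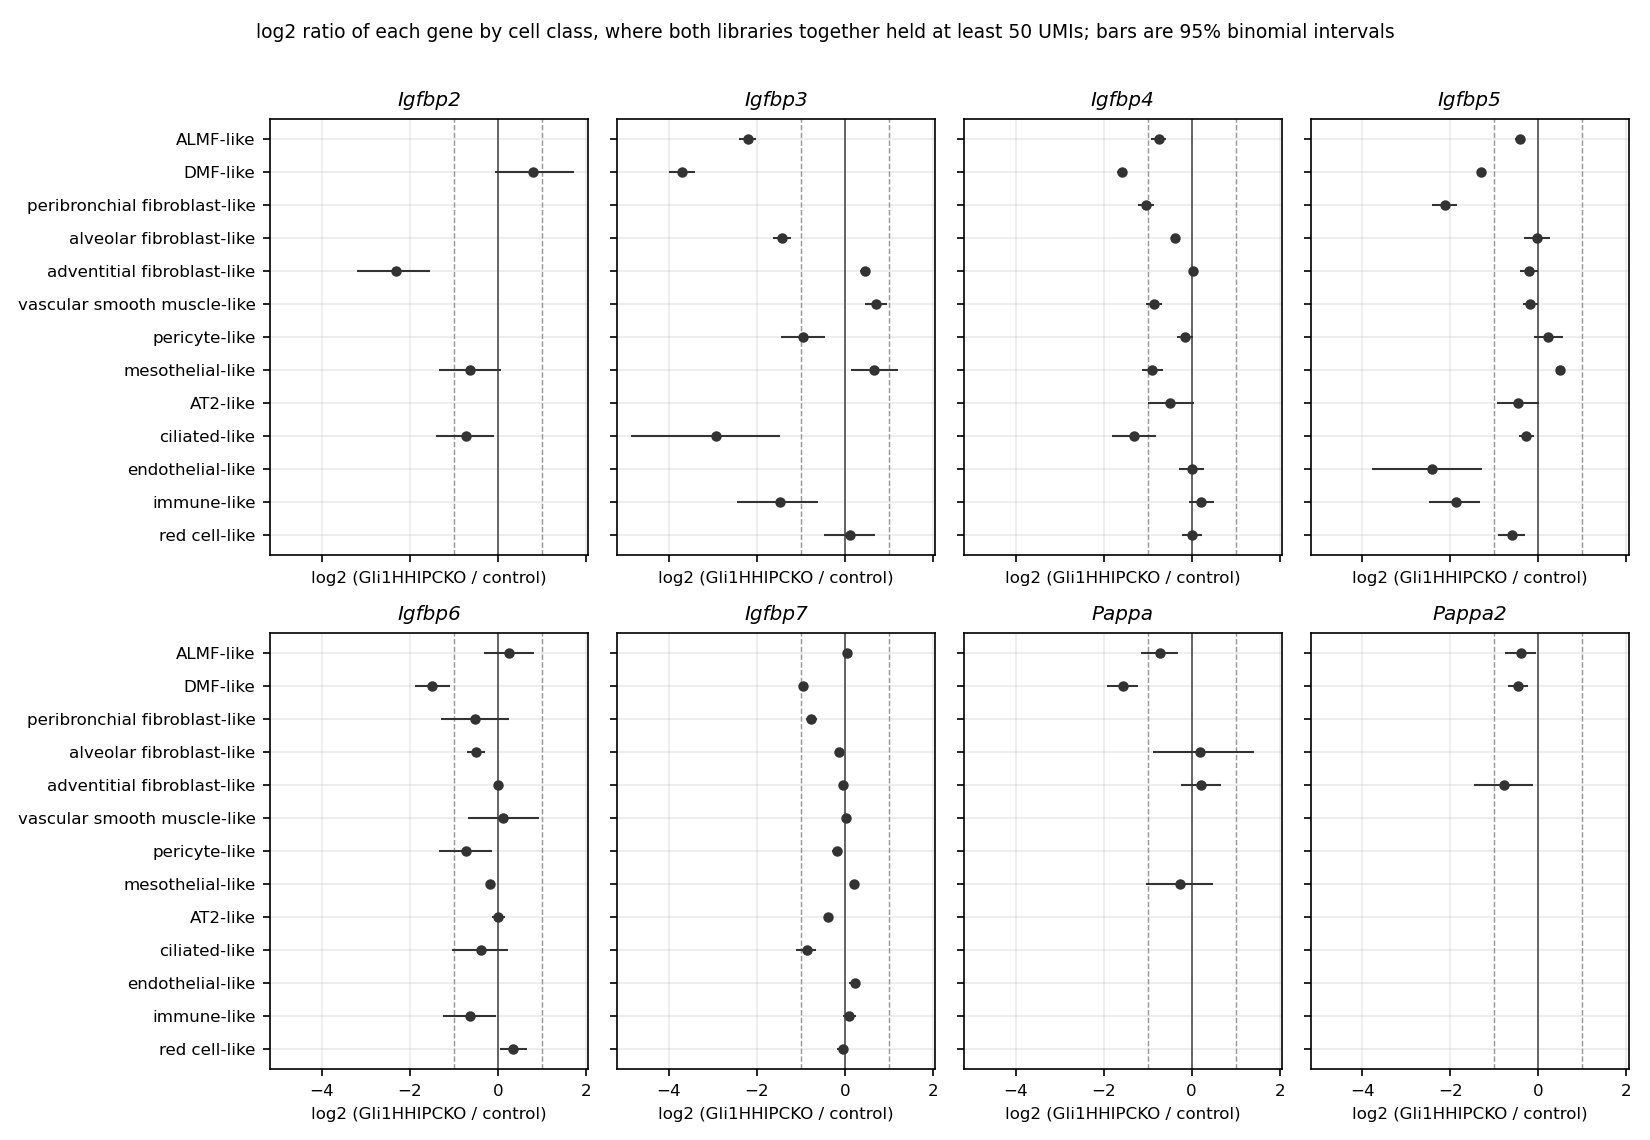
Log2 ratio of the level in *Gli1 HHIPCKO* over control for each member and class with at least 50 UMIs over both libraries, with 95% exact binomial intervals. In DMF-like cells, the ratio of *Igfbp3* is -3.69, and the 3 adventitial, mesothelial and vascular smooth muscle-like ratios of *Igfbp3* lie above 0.

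*Igfbp3* encodes the main IGF carrier of the circulation, and under the main settings it was the member that fell in the most classes. Its alveolar fibroblast-like and immune-like calls ended under alternatives, and its ciliated-like call rested on 54 control and 4 *Gli1 HHIPCKO* UMIs. In control, its level was highest in adventitial fibroblast-like cells, at 479 CPM (455 to 504), above ALMF-like cells at 332 CPM (317 to 347). Vascular smooth muscle-like cells followed at 278 CPM and DMF-like cells at 255 CPM, with intervals that overlapped those next to them, and alveolar fibroblast-like cells at 204 CPM (183 to 228) lay apart from both sides. The other 8 classes ran from pericyte-like cells at 67.8 CPM down to AT2-like cells at 2.38 CPM, and each interval overlapped the next until the step from red cell-like to AT2-like cells. In *Gli1 HHIPCKO*, adventitial fibroblast-like cells at 654 CPM (627 to 683) and vascular smooth muscle-like cells at 458 CPM (413 to 506) stood apart from all others. Alveolar fibroblast-like, ALMF-like and mesothelial-like cells came next, at 76.3, 72.0 and 71.7 CPM, with overlapping intervals.

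Between the libraries, *Igfbp3* in ALMF-like cells went from 332 CPM (control) to 72.0 CPM (*Gli1 HHIPCKO*), a ratio of -2.21 (-2.41 to -2.01). It was smaller within the *Bmp2* and *Fos* clusters, which hold both libraries, at -1.21 (-1.62 to -0.83) and -1.48 (-2.01 to -0.99), and with immediate early genes held out of clustering, at -1.19. The fall was deeper in DMF-like cells, where 255 CPM became 19.7 CPM, a ratio of -3.69 (-4.00 to -3.40). The *Gli1 HHIPCKO* level in DMF-like cells was below that of red cell-like cells, 28.3 CPM. Alveolar fibroblast-like cells had 204 CPM (control) and 76.3 CPM (*Gli1 HHIPCKO*), a ratio of -1.42 (-1.63 to -1.22). That call ended, at -0.62, when each library was clustered on its own, and it also ended with immediate early genes held out of clustering. Peribronchial fibroblast-like cells held 38 UMIs in control and 1 UMI in *Gli1 HHIPCKO*, 56.9 and 1.31 CPM, too few UMIs for a call, with a ratio of -5.44 (-10.79 to -2.88).

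The level of *Igfbp3* was higher in *Gli1 HHIPCKO*, with an interval of the ratio above 0, in 3 other classes. Adventitial fibroblast-like cells had 479 CPM (control) and 654 CPM (*Gli1 HHIPCKO*), a ratio of 0.45 (0.35 to 0.55). Vascular smooth muscle-like cells had 278 and 458 CPM, a ratio of 0.72 (0.47 to 0.97), and mesothelial-like cells 45.2 and 71.7 CPM, a ratio of 0.67 (0.13 to 1.21). None of these 3 ratios reached 2-fold, but the mesothelial-like ratio became 1.79 without likely doublets. Whether they differ from those of the myofibroblast-like cells was not tested. The share of cells with an *Igfbp3* UMI, after thinning to 2000 UMIs, was higher in *Gli1 HHIPCKO* only in part: it was 41.9% and 47.6% in adventitial fibroblast-like cells and 26.6% and 27.7% in vascular smooth muscle-like cells. In mesothelial-like cells it was 5.73% and 3.14%, against 3.22% and 2.24% of red cell-like cells, with 51 UMIs in 22 control cells and 71 UMIs in 16 *Gli1 HHIPCKO* cells, so few cells carried the level there. Median depths were 3567 and 2534 UMIs in mesothelial-like cells. Pericyte-like cells were at 67.8 and 35.0 CPM, with a ratio of -0.96 that turned to 0.39 with immediate early genes held out of clustering. Most of these UMIs, 66 in control and 57 in *Gli1 HHIPCKO*, lay in the cluster led by *Pdzd2*, with 62 and 112 cells, at 212 and 104 CPM. That cluster scored second for ALMF markers, at 0.713. The larger pericyte-like cluster, led by *Higd1b*, had 9.14 and 6.11 CPM. Immune-like cells went from 51.9 to 18.7 CPM and ciliated-like cells from 49.5 to 6.53 CPM, the latter from 54 UMIs to 4. The immune-like ratio of -1.47 shrank to -0.44 without likely doublets. Endothelial-like cells had 29.5 and 38.6 CPM on 10 and 8 UMIs, and red cell-like cells 26.2 and 28.3 CPM, with intervals that reached below 0.

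*Igfbp5* encodes a binding protein that also adheres to extracellular matrix. It was highest in mesothelial-like cells in both libraries, at 3157 CPM (3054 to 3263) in control and 4453 CPM (4323 to 4587) in *Gli1 HHIPCKO*, a ratio of 0.50 (0.43 to 0.56). In control, DMF-like cells came next at 1498 CPM (1451 to 1545). Peribronchial fibroblast-like, vascular smooth muscle-like and ciliated-like cells followed at 817, 762 and 730 CPM, each overlapping the next, and then ALMF-like cells at 466 CPM, clear of both sides. The remaining classes lay between 180 CPM in endothelial-like and 7.69 CPM in AT2-like cells. In *Gli1 HHIPCKO*, vascular smooth muscle-like, DMF-like and ciliated-like cells overlapped at 675, 608 and 608 CPM, and ALMF-like and then peribronchial fibroblast-like cells lay below them, each clear of its neighbours.

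The largest fall of *Igfbp5* outside the endothelial-like class was in peribronchial fibroblast-like cells, from 817 CPM (control) to 187 CPM (*Gli1 HHIPCKO*), a ratio of -2.13 (-2.41 to -1.86). *Igfbp5* also fell in DMF-like cells, from 1498 to 608 CPM, a ratio of -1.30 (-1.37 to -1.23). That ratio was -0.63 where ALMF-like and DMF-like cells were summed. In ALMF-like cells the level was 466 and 350 CPM, a ratio of -0.41. That ratio ranged from -2.07 at a lower clustering resolution to 0.42 with no genes held out, and it was below 0 in 12 of 13 settings. Its direction thus depended on the settings, and within the *Bmp2* and *Fos* clusters it was -2.29 and -2.0. Endothelial-like cells went from 61 UMIs to 7, or 180 to 33.8 CPM, and immune-like cells from 154 to 41.8 CPM. The immune-like ratio of -1.88 became -0.43 without likely doublets, which ended the call. Ciliated-like cells had 730 and 608 CPM, vascular smooth muscle-like cells 762 and 675 CPM, and adventitial fibroblast-like cells 126 and 109 CPM. Pericyte-like cells had 108 and 126 CPM, a ratio of 0.22 that reached 1.06 with no genes held out of clustering, and alveolar fibroblast-like cells 72.7 and 70.9 CPM. In AT2-like cells, 7.69 and 5.58 CPM lay below the red cell-like levels.

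*Igfbp4* encodes a binding protein known mainly as an inhibitor of IGF action and as the classic substrate of PAPPA. It was highest in adventitial fibroblast-like cells, at 3016 CPM (2956 to 3077) in control and 3111 CPM (3050 to 3173) in *Gli1 HHIPCKO*. Alveolar fibroblast-like cells came next, at 1662 CPM (1600 to 1727) and 1284 CPM (1257 to 1312). In control, peribronchial fibroblast-like, vascular smooth muscle-like, endothelial-like and DMF-like cells formed a run of overlapping neighbours at 981, 907, 773 and 747 CPM. Mesothelial-like and pericyte-like cells overlapped at 421 and 374 CPM. ALMF-like cells at 198 CPM could not be told from immune-like cells at 198 CPM, and ciliated-like and red cell-like cells overlapped below them at 169 and 164 CPM. In *Gli1 HHIPCKO*, vascular smooth muscle-like and peribronchial fibroblast-like cells overlapped, as did DMF-like with immune-like and immune-like with mesothelial-like cells, and the others stood apart. AT2-like cells were lowest, at 6.28 (control) and 4.51 CPM (*Gli1 HHIPCKO*).

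In DMF-like cells *Igfbp4* fell from 747 CPM (control) to 248 CPM (*Gli1 HHIPCKO*), a ratio of -1.59 (-1.69 to -1.49). Summed with ALMF-like cells, the ratio was -0.90. Peribronchial fibroblast-like cells went from 981 to 478 CPM, a ratio of -1.04 (-1.22 to -0.85), which 3 of the alternatives moved under 2-fold, the smallest being -0.94. Ciliated-like cells went from 169 to 68.6 CPM, a ratio of -1.30 (-1.82 to -0.81). The share of them with an *Igfbp4* UMI was 14.4% of 250 and 14.6% of 123 cells. After thinning the share was 15.1% (10.3 to 21.1) and 9.47% (4.42 to 17.2). Whether the fall lay in the share of positive cells or in UMIs per positive cell was therefore not settled. Lower *Gli1 HHIPCKO* values under 2-fold were 907 and 499 CPM in vascular smooth muscle-like cells, a ratio of -0.86 (-1.04 to -0.68), and 421 and 227 CPM in mesothelial-like cells, a ratio of -0.89 (-1.12 to -0.66) that became -1.77, past 2-fold, without likely doublets. ALMF-like cells had 198 and 118 CPM, and their ratio of -0.75 turned to 0.20 with no genes held out of clustering. Levels were close in adventitial fibroblast-like cells, with a ratio of 0.04 (0.00 to 0.09), in pericyte-like cells, at 374 and 337 CPM, and in endothelial-like cells, at 773 and 772 CPM. Of the 262 endothelial-like control UMIs, 140 lay in the cluster led by *Ccl21a*, at 1918 CPM. That cluster held 36 control and 9 *Gli1 HHIPCKO* cells, so the mix of clusters differed between the libraries. The *Ptprb* and *Car4* clusters had 659 and 747 CPM, and 211 and 314 CPM. Immune-like cells had 198 and 231 CPM.

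*Igfbp6* encodes a binding protein that prefers IGF2. It was above all a mesothelial transcript, at 5095 CPM (4964 to 5228) in control and 4476 CPM (4345 to 4609) in *Gli1 HHIPCKO* mesothelial-like cells, a ratio of -0.19 (-0.24 to -0.13). Adventitial fibroblast-like cells followed at 725 CPM (696 to 755) and 726 CPM (697 to 757), and alveolar fibroblast-like cells at 155 CPM (136 to 175) and 109 CPM (101 to 118). The other 10 classes had at most 82.6 CPM (control) and 105 CPM (*Gli1 HHIPCKO*), both in red cell-like cells. Among them, DMF-like cells went from 49.1 to 17.5 CPM, a call at -1.49 (-1.88 to -1.09) that was -0.54 when both myofibroblast-like classes were summed. ALMF-like cells were lowest in both libraries, at 12 and 14.3 CPM, with a ratio of 0.26 that ranged from -1.47 to 0.45. AT2-like cells had 65.7 and 66.2 CPM, and after thinning 12.4% and 11.6% of them held a UMI, against 5.47% and 5.22% of red cell-like cells, at median depths of 4657 and 5735.5 UMIs. Ciliated-like cells had 68.7 and 52.3 CPM, immune-like cells 69.4 and 44.7 CPM, and peribronchial fibroblast-like cells 52.4 and 36.6 CPM. Pericyte-like cells had 44.6 and 26.9 CPM, vascular smooth muscle-like cells 34.2 and 37.1 CPM, and endothelial-like cells 23.6 and 91.7 CPM on 8 and 19 UMIs. Apart from the 3 leading classes, every class overlapped its neighbours in control, as did every class below adventitial fibroblast-like cells in *Gli1 HHIPCKO*.

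*Igfbp2*, whose product has a high affinity for IGF2, was sparse, with 516 UMIs in all cells of both libraries. In control it was highest in ciliated-like cells at 73.3 CPM (58.1 to 91.2) and mesothelial-like cells at 45.2 CPM (33.6 to 59.4), which overlapped, then in adventitial fibroblast-like cells at 25.1 CPM and vascular smooth muscle-like cells at 19.2 CPM. In *Gli1 HHIPCKO*, ciliated-like cells had 44.1 CPM, mesothelial-like cells 29.3 CPM and vascular smooth muscle-like cells 21.5 CPM, with overlapping intervals throughout. Thus 3 of the 4 leading classes were the same in both libraries, and in the remaining class, the adventitial fibroblast-like cells, it fell from 80 UMIs to 16, or 25.1 to 5.01 CPM, a ratio of -2.32 (-3.20 to -1.54). Of these UMIs, 78 in control and 6 in *Gli1 HHIPCKO* lay in the cluster led by *Adh7*, *Wif1* and *C1qtnf3*, with 175 and 101 cells, where the level was 111 and 16 CPM. DMF-like cells had 5.71 and 9.86 CPM, a ratio of 0.79 (-0.06 to 1.72) that turned to -0.17 with immediate early genes held out and reached 1.37, past 2-fold, at resolution 2. Peribronchial fibroblast-like, immune-like, ALMF-like, red cell-like, alveolar fibroblast-like and AT2-like cells had at most 5.99 CPM in either library. No UMI was counted in pericyte-like or endothelial-like cells, where a limit of 3 UMIs corresponds to 2.79 and 8.85 CPM in control and 1.61 and 14.5 CPM in *Gli1 HHIPCKO*.

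*Igfbp7*, which encodes the low-affinity member and is known as an endothelial and smooth muscle transcript, was the most abundant, with 164378 UMIs in both libraries. Its order was led by adventitial fibroblast-like cells at 6463 CPM (6375 to 6552) in control and 6312 CPM (6225 to 6400) in *Gli1 HHIPCKO*, then vascular smooth muscle-like cells at 5495 and 5599 CPM, each apart from its neighbours. Endothelial-like cells at 3733 CPM and alveolar fibroblast-like cells at 3448 CPM overlapped in control and were at 4373 and 3139 CPM in *Gli1 HHIPCKO*. Mesothelial-like cells had 3045 and 3487 CPM. Below them the myofibroblast-like order changed: DMF-like cells, with 2347 CPM (2289 to 2406), were above ALMF-like cells, with 1592 CPM (1560 to 1626), in control, and below them in *Gli1 HHIPCKO*, with 1218 CPM (1189 to 1248) against 1650 CPM (1606 to 1695). The DMF-like ratio of -0.95 stayed under 2-fold, and the ALMF-like ratio was 0.05 (0.00 to 0.10). Peribronchial fibroblast-like cells had 2211 and 1307 CPM, a ratio of -0.76. The lowest 5 classes were pericyte-like cells at 896 and 793 CPM, immune-like cells at 669 and 718 CPM, ciliated-like cells at 637 and 348 CPM, red cell-like cells at 581 and 562 CPM and AT2-like cells at 554 and 424 CPM, of which the last 4 overlapped their neighbours in control. Within the endothelial-like class the *Car4* cluster, with 52 and 46 cells, held 8504 and 8040 CPM. A cluster without a name, led by *Grp*, *Timp4* and *Itih4* and with smooth muscle markers, held 8390 and 7795 CPM.

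**Figure D2:**
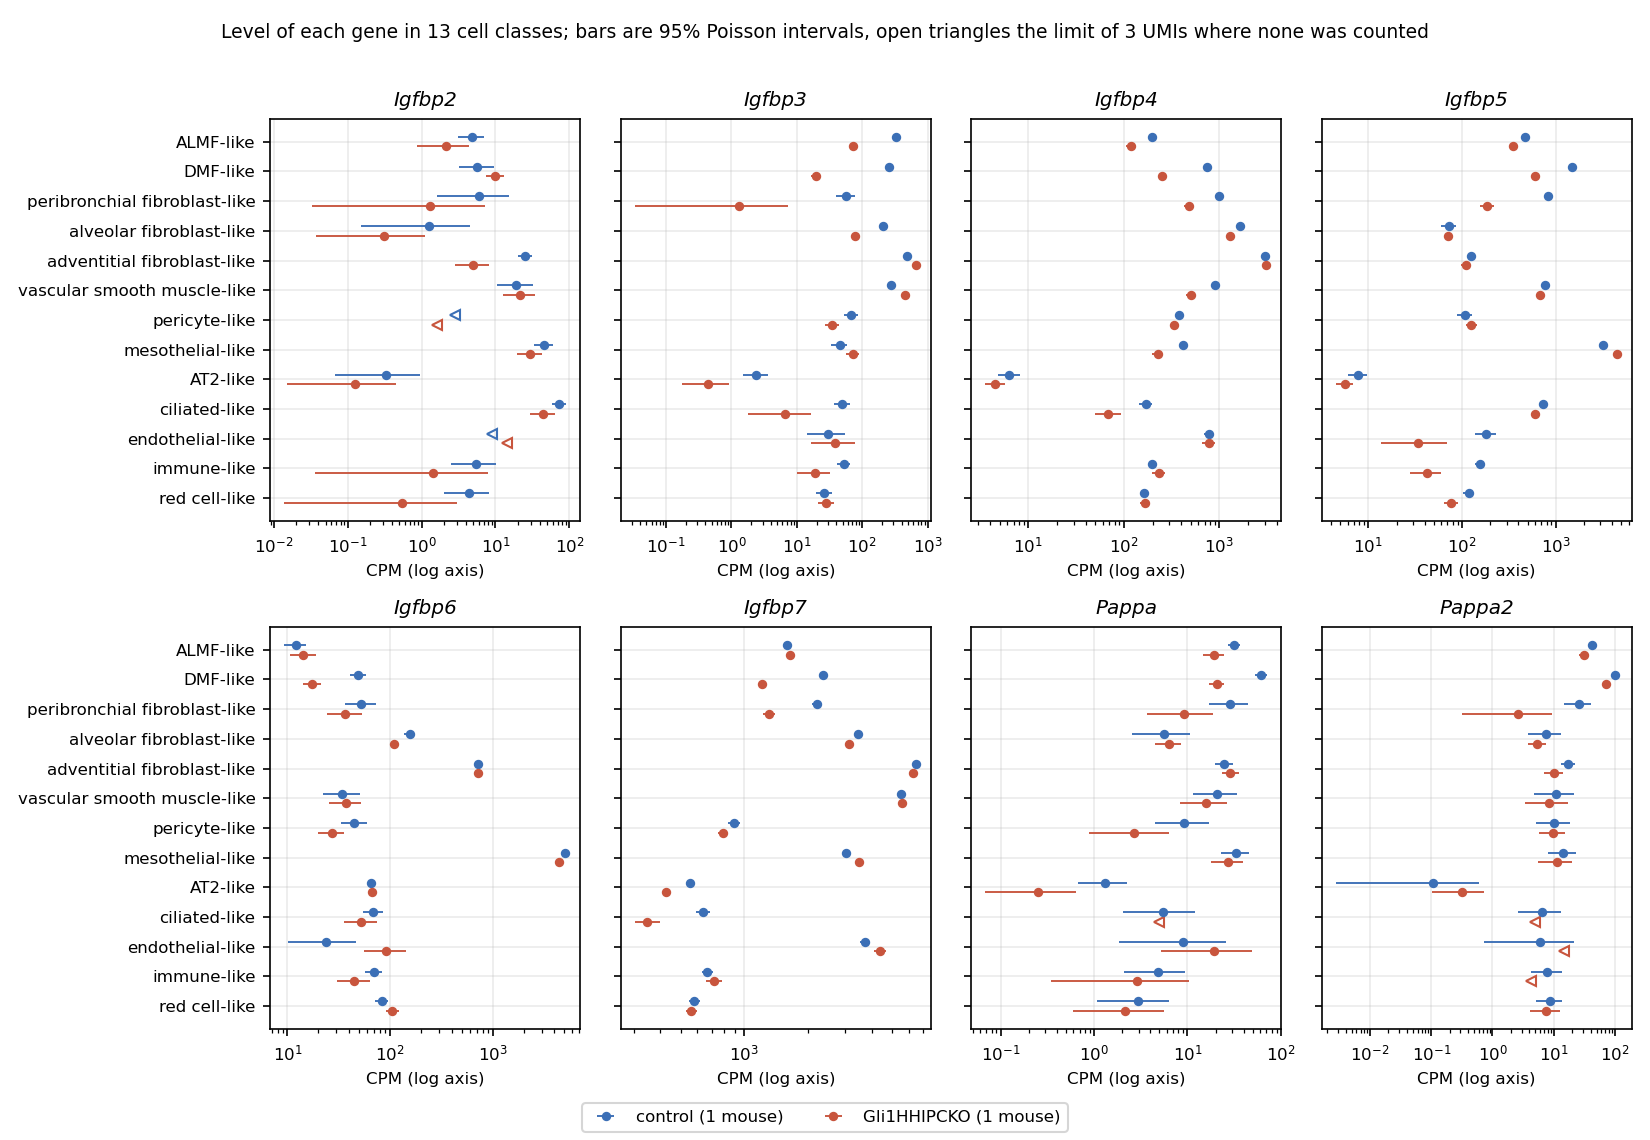
Level of each member in CPM, on a log axis, in the 13 classes of each library, with 95% exact Poisson intervals and open triangles at the limit of 3 UMIs where none was counted. *Igfbp5* and *Igfbp6* peak in mesothelial-like cells at 3157 and 5095 CPM in control, and *Igfbp4* and *Igfbp7* in adventitial fibroblast-like cells.

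*Pappa*, which encodes the pappalysin that cuts IGFBP4 and IGFBP5, was highest in DMF-like cells in control, at 61.3 CPM (52.2 to 71.5), apart from all others. Mesothelial-like, ALMF-like, peribronchial fibroblast-like, adventitial fibroblast-like and vascular smooth muscle-like cells followed at 32.8, 31.7, 28.4, 24.8 and 20.5 CPM, with overlapping neighbours. In *Gli1 HHIPCKO* the DMF-like lead was gone: adventitial fibroblast-like cells had 28.8 CPM, mesothelial-like cells 27.3 CPM and DMF-like cells 20.6 CPM, all overlapping in order. The fall in DMF-like cells had a ratio of -1.57 (-1.93 to -1.21), from 161 UMIs to 113. ALMF-like cells had 31.7 and 19.2 CPM, a ratio of -0.72 (-1.16 to -0.30). It ranged from -1.48, past 2-fold, with no cell filter to -0.24 with no genes held out of clustering. Peribronchial fibroblast-like cells had 28.4 and 9.14 CPM on 19 and 7 UMIs. With ALMF-like and DMF-like cells summed, *Pappa* was at 41.1 CPM (control) and 20.1 CPM (*Gli1 HHIPCKO*), a ratio of -1.03. Vascular smooth muscle-like cells had 15.6 CPM in *Gli1 HHIPCKO* and alveolar fibroblast-like cells 5.59 and 6.33 CPM. The other classes held at most 9.29 CPM in control, and endothelial-like cells 19.3 CPM in *Gli1 HHIPCKO* on 4 UMIs. In ciliated-like cells there were 6 UMIs in control and none in *Gli1 HHIPCKO*.

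*Pappa2*, which encodes the pappalysin that cuts IGFBP3 and IGFBP5, was highest in DMF-like cells in both libraries, at 98.6 CPM (87.0 to 111) and 71.2 CPM (64.3 to 78.7). ALMF-like cells followed at 41.6 CPM (36.4 to 47.2), overlapping peribronchial fibroblast-like cells in control, and at 31.4 CPM (25.6 to 38.1), clear of both sides in *Gli1 HHIPCKO*. The ratios of the whole classes were -0.47 (-0.70 to -0.24) in DMF-like and -0.40 (-0.75 to -0.06) in ALMF-like cells. Within both ALMF-like clusters that hold both libraries, *Pappa2* was lower by more, with ratios of -2.07 (-4.37 to -0.49) and -2.70 (-5.00 to -1.11) on 3 *Gli1 HHIPCKO* UMIs each. The ALMF-like ratio ranged from -2.59 with immediate early genes held out to -0.06 with no genes held out. Peribronchial fibroblast-like cells had 17 UMIs in control and 2 in *Gli1 HHIPCKO*, 25.4 and 2.61 CPM, a ratio of -3.28 (-6.44 to -1.21) on too few UMIs for a call. Adventitial fibroblast-like cells had 17.3 and 10.0 CPM, a ratio of -0.78 (-1.46 to -0.13). Mesothelial-like cells had 14.2 and 11.1 CPM, pericyte-like cells 10.2 and 9.68 CPM, and vascular smooth muscle-like cells 10.9 and 8.37 CPM. Red cell-like cells had 8.75 and 7.61 CPM, and alveolar fibroblast-like cells 7.45 and 5.41 CPM. Ciliated-like, immune-like and endothelial-like cells had 7, 13 and 2 UMIs in control and none in *Gli1 HHIPCKO*, and AT2-like cells 1 and 5.

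Clusters that held at least 50 cells of each library allow the libraries to be compared within a cluster. Both libraries were clustered together, so cells were grouped by likeness, and library and cell state are not fully separated there. The *Bmp2* and *Fos* clusters held 131 and 84 of the 1066 *Gli1 HHIPCKO* ALMF-like cells, and the *Lnx1* cluster held 851. Both ALMF-like clusters that qualified had lower *Igfbp3* in *Gli1 HHIPCKO*. The *Bmp2* cluster had 348 CPM (control) and 150 CPM (*Gli1 HHIPCKO*), a ratio of -1.21, and the *Fos* cluster had 304 and 109 CPM, a ratio of -1.48. *Igfbp5* went from 267 to 54.4 CPM in the *Bmp2* cluster and from 857 to 215 CPM in the *Fos* cluster, ratios of -2.29 and -2.00, which are larger falls than in the whole class. *Igfbp4* had ratios of -0.65 and -2.02 there. *Pappa* was at 26.5 and 7.77 CPM in the *Bmp2* cluster and at 42.2 and 9.34 CPM in the *Fos* cluster, with 3 UMIs in *Gli1 HHIPCKO* each time. *Pappa2* had 32.7 and 60.5 CPM there in control.

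In the alveolar fibroblast-like clusters led by *Slc7a10* and *Crabp1*, *Igfbp3* went from 200 to 79.2 CPM and from 282 to 59.9 CPM. In the 3 adventitial fibroblast-like clusters led by *Serpinf1*, *Rbp4* and *Adh7*, *Igfbp3* was higher in *Gli1 HHIPCKO*, with ratios of 0.59, 0.61 and 0.22. The fall of *Igfbp3* was thus shared by every qualifying ALMF-like and alveolar fibroblast-like cluster, and no adventitial cluster had it. Of the 12 named mesenchymal clusters that qualified, 10 had enough UMIs of *Igfbp3*, and 5 of these were lower and none higher at least 2-fold. *Igfbp5* was lower in 3 of 11 and higher in 1, a pericyte-like cluster with 10 and 41 UMIs. *Igfbp4* was lower in 2 of 12, *Igfbp6* in 1 of 9 and *Igfbp7* in 0 of 12. Over the same 12 clusters, 1.99% of all pairs of a gene and a cluster with enough UMIs were lower and 2.22% higher, and in the uneven *Bmp2* and *Fos* clusters 4.54% and 4.50% of genes were lower. The other members passed the UMI limit in fewer clusters: *Pappa* was lower in 2 of 5, *Pappa2* in 2 of 2 and *Igfbp2* in 1 of 2. No DMF-like cluster held 50 cells of both libraries, so none of these counts covers DMF-like cells. Among cells without a name, *Igfbp3* was also lower in a mesenchymal cluster with AT2 markers, led by *Lcn2*, *Sftpa1* and *Lyz1*, at 144 (control) and 66.9 CPM (*Gli1 HHIPCKO*). An epithelial cluster led by *Lcn2* and *Chil1* had 93.1 and 19.9 CPM, a ratio of -2.23. It scored second for DMF markers, at 0.253, and held *Hhip* at 409 and 101 CPM and *Igf1* at 78.8 and 374 CPM. The part of stromal RNA in its *Igfbp3* was not tested.

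**Figure D3:**
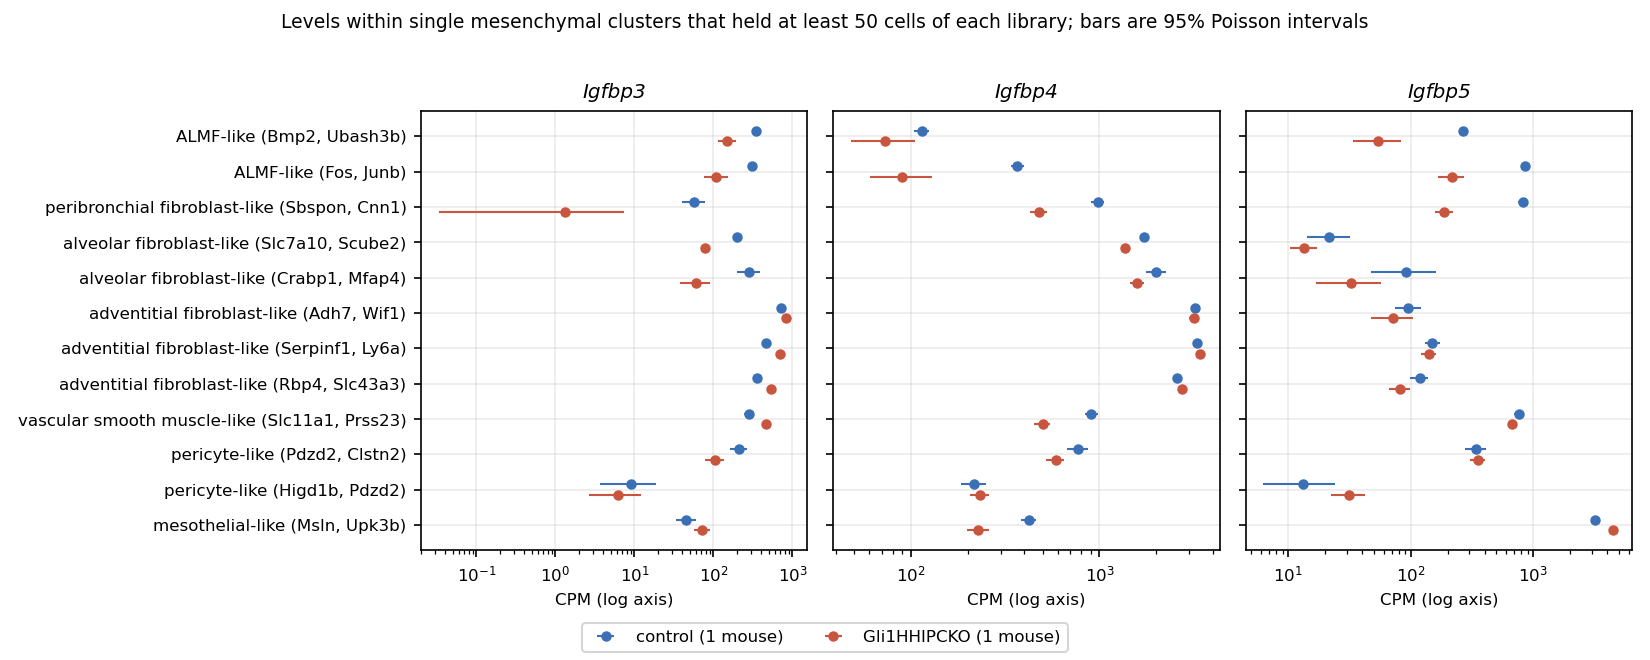
Level in CPM, on a log axis, of *Igfbp3*, *Igfbp4* and *Igfbp5* in each named mesenchymal cluster with at least 50 cells of each library, with 95% exact Poisson intervals. The *Gli1 HHIPCKO* points of *Igfbp3* lie left of control in both ALMF-like clusters and right of it in the 3 adventitial fibroblast-like clusters.

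Summed over the 6 binding protein genes, the level was highest in mesothelial-like cells, at 11808 CPM (control) and 12744 CPM (*Gli1 HHIPCKO*), and in adventitial fibroblast-like cells, at 10834 and 10918 CPM. The sum fell in DMF-like cells from 4902 to 2121 CPM, a ratio of -1.21 (-1.24 to -1.17), and in peribronchial fibroblast-like cells from 4124 to 2012 CPM, a ratio of -1.04 (-1.13 to -0.95). Those were the 2 classes in which the sum passed 2-fold. ALMF-like cells had 2605 and 2206 CPM, a ratio of -0.24 (-0.28 to -0.20), and *Igfbp7* made up most of their sum. The share of *Igfbp7* in the ALMF-like sum went from 61.1% to 74.8%, while the share of *Igfbp3* went from 12.7% to 3.26%. In DMF-like cells the share of *Igfbp7* was 47.9% and 57.4%, that of *Igfbp5* 30.6% and 28.7%, and that of *Igfbp3* 5.2% and 0.930%. Mesothelial-like cells mixed 3 genes, with *Igfbp6* at 43.1% and 35.1%, *Igfbp5* at 26.7% and 34.9% and *Igfbp7* at 25.8% and 27.4%. Ciliated-like cells were the class led by *Igfbp5*, with 42.3% and 53.9% of 1727 and 1127 CPM. The sum was 7496 and 7289 CPM in vascular smooth muscle-like cells, 5544 and 4680 CPM in alveolar fibroblast-like cells and 4740 and 5309 CPM in endothelial-like cells.

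**Figure D4:**
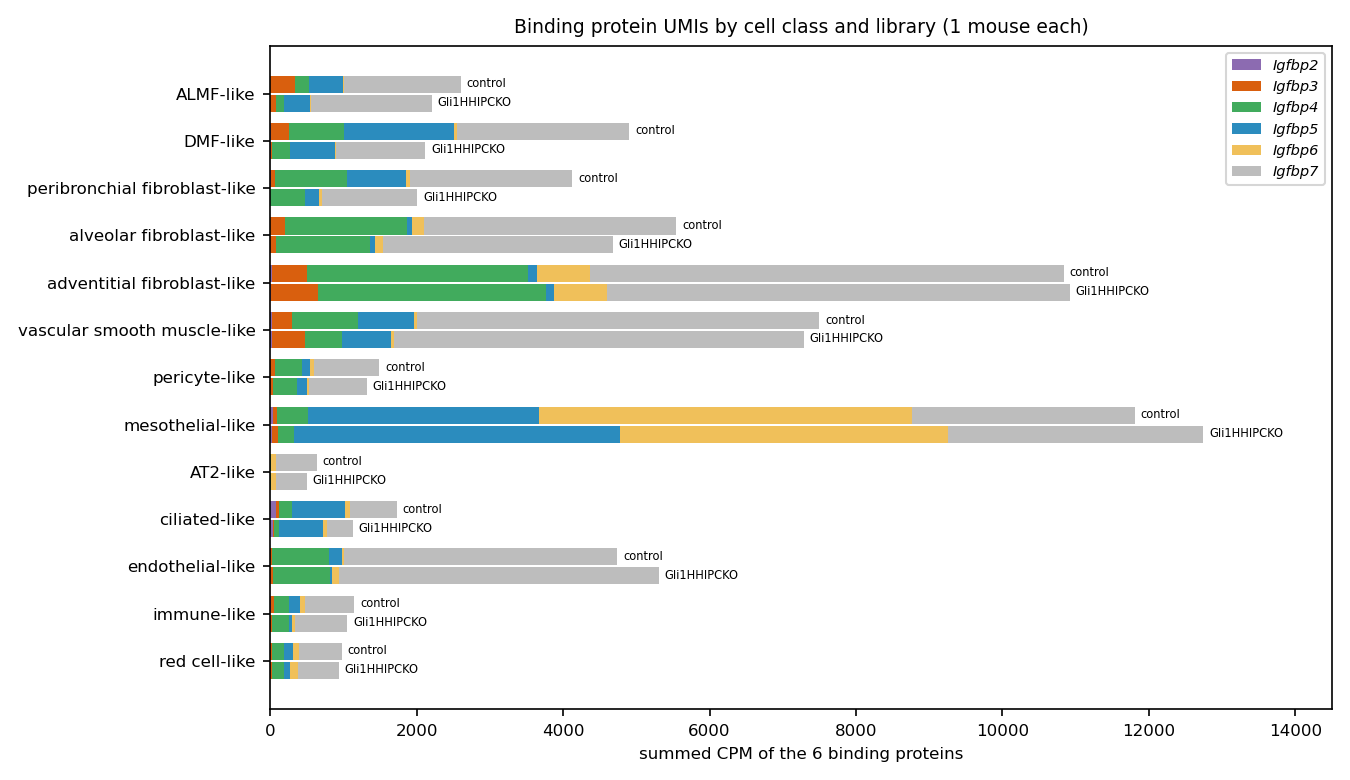
Summed level in CPM of the 6 binding protein genes in each class and library, split by gene. DMF-like and peribronchial fibroblast-like cells have the *Gli1 HHIPCKO* bars furthest below the control bars, at 2121 and 2012 CPM.

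In single cells thinned to 2000 UMIs each, with shallower cells left out, *Igfbp3* was detected in 35.3% (32.9 to 37.7) of 1544 ALMF-like control cells and 9.37% (7.55 to 11.5) of 907 *Gli1 HHIPCKO* cells. In DMF-like cells the shares were 26.6% (23.5 to 29.9) of 762 and 2.05% (1.38 to 2.93) of 1413. Red cell-like cells had 3.22% (1.55 to 5.83) in control and 2.24% (0.826 to 4.81) in *Gli1 HHIPCKO*, so the DMF-like share in *Gli1 HHIPCKO* was no higher than theirs. It was above the 0.0384% of AT2-like cells in *Gli1 HHIPCKO*, so whether it is background cannot be told. Median depths before thinning were 2481.5 and 3218 UMIs in DMF-like cells and 5055 and 5451 UMIs in red cell-like cells. *Igfbp4* was detected in 64.7% and 34.1% of DMF-like cells, against 13.8% and 17.9% of red cell-like cells. *Igfbp5* was detected in 79.1% and 49.3%, against 9.65% and 8.96%, so both remained above the red cell-like shares in *Gli1 HHIPCKO*.

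DMF-like cells also carried fewer kinds of binding protein transcripts per cell. After thinning, 65.1% of DMF-like control cells and 17.6% of *Gli1 HHIPCKO* cells had UMIs of at least 3 of the 6 genes. The shares were 24.4% and 8.93% in ALMF-like cells, 43.6% and 13.3% in peribronchial fibroblast-like cells and 44.2% and 26.5% in alveolar fibroblast-like cells. They were close between libraries in adventitial fibroblast-like cells, at 75.1% and 79.0%, and in mesothelial-like cells, at 96% and 97.9%. Red cell-like cells gave 7.40% and 5.60%, and immune-like cells 11.8% and 11.9%. Over all pairs of a member and a class with enough UMIs, 49 of 73 thinned shares were lower in *Gli1 HHIPCKO*, and 53 of 73 before thinning, and the same count was not made for all genes.

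Against the ligand, the 5 high-affinity binding protein genes gave 7.44 UMIs (6.94 to 7.98) per *Igf1* UMI in DMF-like control cells and 0.706 (0.681 to 0.732) in *Gli1 HHIPCKO*. ALMF-like cells gave 6.1 and 0.724, and peribronchial fibroblast-like cells 5.48 and 0.733. In these 3 classes binding protein UMIs thus outnumbered those of *Igf1* in control and were fewer in *Gli1 HHIPCKO*. For ALMF-like cells that rested on the *Lnx1* cluster, with 0.672 in *Gli1 HHIPCKO*. In the *Bmp2* and *Fos* clusters, which hold both libraries, the ratio went from 5.90 to 1.45 (1.07 to 1.98) and from 6.37 to 1.34 (1.03 to 1.73) and stayed above 1. *Igf1* itself rose from 343 to 1279 CPM in DMF-like cells. In the other classes with enough *Igf1* UMIs the ratio stayed above 1, and it was 21.1 and 13.7 in adventitial fibroblast-like cells, 16.2 and 6.73 in alveolar fibroblast-like cells, and 84.5 and 47.3 in mesothelial-like cells. *Igf1* was at 34.5 and 142 CPM in red cell-like cells, and the part of RNA from other cells in it was not tested. *Igf2*, the other ligand gene, was not counted in these ratios. Both ligand genes were at least 2-fold higher in ALMF-like and DMF-like cells, beside 2.80% and 3.02% of all genes there.

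The other genes of the pathway were taken from a list of 27. Of those with enough UMIs, 4 of 18 were lower and 3 higher in ALMF-like cells, beside 1.70% and 2.80% of all genes. In DMF-like cells 2 of 19 were lower and 4 higher (2.25% and 3.02% of all genes), and among peribronchial fibroblast-like cells 3 of 12 and 2 (2.41% and 2.61%). The count was 2 of 20 lower and 1 higher for adventitial fibroblast-like cells (1.39% and 1.75%), 1 of 17 and 0 for alveolar fibroblast-like cells (1.78% and 2.11%) and 2 of 17 and 2 for vascular smooth muscle-like cells (1.02% and 1.87%). It was 0 of 17 and 1 for pericyte-like cells (0.684% and 1.87%) and 0 of 13 and 2 for mesothelial-like cells (1.36% and 2.03%). *Stc1*, which encodes an inhibitor of the pappalysins, fell in 3 classes. In ALMF-like cells it had 180 CPM (control) and 53.4 CPM (*Gli1 HHIPCKO*), or -1.75 (-1.99 to -1.52), in DMF-like cells 29.7 and 3.65 CPM, or -3.02 (-3.81 to -2.30), and in adventitial fibroblast-like cells 22.6 and 7.21 CPM. *Stc2*, the related inhibitor, went the other way in ALMF-like and DMF-like cells summed, from 10 UMIs to 60, or 1.20 to 6.85 CPM, a ratio of 2.51 (1.53 to 3.64). It had its highest level in adventitial fibroblast-like cells, at 79.1 and 47.6 CPM, and *Prg2*, which encodes an inhibitor of PAPPA, had 1 UMI in adventitial fibroblast-like control cells.

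*Htra1*, which encodes another IGFBP protease, was at 582 and 517 CPM in ALMF-like cells and 523 and 389 CPM in DMF-like cells, within 2-fold. Among the IGFBP-related CCN genes, *Ccn1* fell in ALMF-like cells from 722 to 310 CPM and rose in DMF-like cells from 231 to 978 CPM. *Ccn2* fell from 702 to 236 CPM in ALMF-like cells, and *Ccn3* from 25.9 to 8.22 CPM in DMF-like cells. *Ccn1* is also an immediate early gene, and a DMF-like cluster of 551 *Gli1 HHIPCKO* cells was led by such genes; their part was not tested. *Lrp1* and *Tmem219*, which encode receptors for IGFBP3, did not pass 2-fold in any class with enough UMIs, and *Igf1r* rose in ALMF-like cells from 34.0 to 70.4 CPM. Of the other carriers, *Igfbp1* had no UMI in any class.

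Over the 26 values of 13 classes in 2 libraries, the genes most like each member were found among 8095 genes by the correlation r of log2 CPM. These values share libraries and depth, and no p is given. *Igfbp3* was most like *Tnxb* (r = 0.879), *Hic1* (0.862) and *Pdgfrl* (0.842), and *Igfbp4* most like *Mamdc2* (0.902), *Tubb6* (0.890) and *Col1a2* (0.890). *Igfbp5* came closest to *Basp1* (0.837), *Crip1* (0.827) and *Gabarapl1* (0.821). *Igfbp6* had the closest matches, *Gsdme* (0.949), *Efna5* (0.943) and *Cfb* (0.941). Genes like *Igfbp7* included *Vat1* (0.883) and *Arhgef10* (0.869), and for *Igfbp2* the closest were *Tcea3* (0.860), *Tent5b* (0.837) and *S100a11* (0.833). *Pappa* was most like *Tgfb3* (0.912), the protease gene *Htra1* (0.882) and *Medag* (0.847). *Pappa2* was most like *Cacna1g* (0.911), *Kazald1* (0.879), an IGFBP-related gene, and the DMF marker *Prss35* (0.873).

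On GRCm38, *Igfbp2* (ENSMUSG00000039323, chr1:72824503-72852474, plus strand) and *Igfbp5* (ENSMUSG00000026185, chr1:72857932-72874884, minus strand) lie tail to tail 5457 bases apart. In DMF-like control cells these neighbours differed, with 5.71 CPM of *Igfbp2* and 1498 CPM of *Igfbp5*. *Igfbp3* (ENSMUSG00000020427, chr11:7206086-7213923, minus strand) lies 3539 bases from *Igfbp1*, which had no UMI. *Igfbp4* (ENSMUSG00000017493) is at chr11:99041244-99054392 on the plus strand and *Igfbp6* (ENSMUSG00000023046) at chr15:102144362-102149511 on the plus strand. *Igfbp7* (ENSMUSG00000036256) is at chr5:77349240-77408041 on the minus strand, where its end overlaps that of *Polr2b* on the other strand. *Pappa* (ENSMUSG00000028370) is at chr4:65124174-65357509 on the plus strand and *Pappa2* (ENSMUSG00000073530) at chr1:158711727-158980490 on the minus strand.

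RefSeq's table for GRCm38.p6 gave the 250 bases before the start of 7 of the 8 members, in 8 windows, and none for *Pappa*. The motifs were searched on both strands: TATAAA, which 12.4% of all 32851 such windows hold, GGGCGG, which 32.7% hold, and ACCACCC, which 3.92% hold. TATAAA was found before *Igfbp4*, 28 bases from the start, and before *Igfbp6*, 148 bases from it. GGGCGG was found 3 times in a window of *Igfbp2* and 4 times before *Igfbp7*, and ACCACCC in none of the 8 windows. The windows of *Igfbp3*, *Igfbp4* and *Igfbp5*, which had the highest control levels among the binding protein genes that fell in DMF-like cells and were chosen after their values were seen, are shown, from 5′ to 3′ on the gene's strand, with TATAAA in capitals. They are those of *Igfbp3* (chr11:7213924-7214173, minus strand, 73.2% G or C), *Igfbp4* (chr11:99040994-99041243, plus strand, 69.2%) and *Igfbp5* (chr1:72874866-72875115, minus strand, 58.8%).
Igfbp3: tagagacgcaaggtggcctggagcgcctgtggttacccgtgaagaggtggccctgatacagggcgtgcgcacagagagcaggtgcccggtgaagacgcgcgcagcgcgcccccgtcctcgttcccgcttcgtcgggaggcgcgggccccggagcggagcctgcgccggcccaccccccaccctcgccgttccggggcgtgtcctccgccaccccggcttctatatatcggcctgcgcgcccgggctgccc
Igfbp4: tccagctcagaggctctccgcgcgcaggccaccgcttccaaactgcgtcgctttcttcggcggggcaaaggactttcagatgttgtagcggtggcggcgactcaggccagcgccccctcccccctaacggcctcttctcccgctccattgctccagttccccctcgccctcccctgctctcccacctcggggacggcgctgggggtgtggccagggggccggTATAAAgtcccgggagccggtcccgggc
Igfbp5: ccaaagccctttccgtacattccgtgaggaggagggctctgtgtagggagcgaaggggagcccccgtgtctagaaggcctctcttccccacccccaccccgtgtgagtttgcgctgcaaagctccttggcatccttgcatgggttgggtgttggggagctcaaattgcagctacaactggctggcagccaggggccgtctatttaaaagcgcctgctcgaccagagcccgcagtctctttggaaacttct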

How the data were processed

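The deposited files hold raw UMI counts per gene and cell that the authors made with CellRanger (6.1.0 in the file header, 3.1.0 in the labels) on mm10, with cells as CellRanger called them. Cells outside 200 to 6000 genes or above 10% mitochondrial UMIs were removed, and both libraries were clustered together at 2 levels by Leiden (resolution 1, 2000 variable genes, 30 principal components, 20 neighbours), with 48 genes, the members among them, held out. Clusters were named from marker lists with score limits set after the clusters were seen. The members and lists were chosen with earlier results of these data known. Named genes are the members, the pathway lists, *Hhip* and Hedgehog readouts, sex-linked genes, up to 3 genes most like each member and marker genes. Likely doublets were left in and removed as an alternative, as were filters, resolution, naming, scaling and limits. The ratio and interval code was tested on simulated Poisson counts, and the 2-fold calling step was not. Library depths stand in the report. The tools were scanpy 1.11.5, leidenalg 0.10.2, igraph 0.11.9, scikit-learn 1.9.0, scipy 1.17.1, numpy 2.4.6, pandas 2.3.3 and matplotlib 3.10.9 under Python 3.11.15.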

Additional observations from a re-analysis of the deposited data

Results flagged for a closer look

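*Igfbp3* differed in direction between cell classes of the same 2 libraries. Its log2 ratio of *Gli1 HHIPCKO* over control was -2.21 in ALMF-like, -3.69 in DMF-like and -1.42 in alveolar fibroblast-like cells, the last of which shrank to -0.62 with each library clustered on its own. It was 0.45 in adventitial fibroblast-like, 0.67 in mesothelial-like and 0.72 in vascular smooth muscle-like cells. The thinned share of cells with an *Igfbp3* UMI did not follow in all 3: it was 5.73% (control) and 3.14% in mesothelial-like cells and 26.6% and 27.7% in vascular smooth muscle-like cells. *Igfbp5* had ratios of -1.30 in DMF-like and -2.13 in peribronchial fibroblast-like cells, and 0.50 in mesothelial-like cells. With 1 mouse per group, these differences between classes were not tested.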

How the results depend on the processing

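Counts here take members past 2-fold in either direction. The count in DMF-like cells, 5, ran from 4 to 7 under the alternatives that kept the class apart, and it was 2 where ALMF-like and DMF-like cells were summed. Other counts moved further. With no cell filter there were 5 in ALMF-like, 4 in AT2-like and 1 in red cell-like cells. With the stricter filter there were 3 in AT2-like and 1 in red cell-like cells. At resolution 0.5 there were 2 in ALMF-like, 5 in AT2-like, 1 in peribronchial fibroblast-like and 1 in red cell-like cells, and at resolution 2 there were 2 in AT2-like and 1 in red cell-like cells. With each library clustered on its own there were 3 in ALMF-like, 0 in alveolar fibroblast-like, and 1 each in ciliated-like, peribronchial fibroblast-like and red cell-like cells. Without likely doublets there were 5 in ALMF-like, 2 in adventitial fibroblast-like, 2 in mesothelial-like, 1 in immune-like (higher, *Igfbp7*) and 1 in red cell-like cells. With immediate early genes held out there were 4 in ALMF-like, 4 in AT2-like and 0 in alveolar fibroblast-like cells, and with nothing held out 5 in AT2-like and 1 in pericyte-like cells. With fibroblasts named one by one there were 5 in peribronchial fibroblast-like cells. With the mean over cells there was 1 in peribronchial fibroblast-like and 1 in mesothelial-like cells, and with ratios centred on all genes 1 in pericyte-like cells. At 10 UMIs, which lets more genes in, there were 2 each in ALMF-like, AT2-like and endothelial-like, 5 in peribronchial fibroblast-like, and 1 each in pericyte-like and red cell-like cells. At 1.5-fold there were 3 in ALMF-like and mesothelial-like, 4 in ciliated-like, 2 each in adventitial fibroblast-like, pericyte-like and vascular smooth muscle-like, and 1 in red cell-like cells. Except at 10 UMIs and 1.5-fold, the cause was not tested.

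Of 856 single ratios under alternatives, 681 stayed within the counting interval, 175 moved beyond it, and no called ratio changed sign. *Igfbp3* ranged from -2.97 to -1.19 in ALMF-like cells and from -3.99 to -2.97 in DMF-like cells, and both stayed past 2-fold. Where ALMF-like and DMF-like cells were summed, 11 of 15 ratios moved. Some classes fell under 100 cells per library or were not named: endothelial-like with the stricter filter, vascular smooth muscle-like at resolution 0.5, endothelial-like, pericyte-like and vascular smooth muscle-like with separate clustering, and ciliated-like, endothelial-like and pericyte-like without doublets. No paired analysis was possible because the 2 mice are not matched. Depth limits *Igfbp2*, *Pappa* and *Pappa2* most, with 516, 1063 and 1462 UMIs.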

Other observations

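The 2 libraries come from 1 mouse each and differ in sex genes, so no ratio has an error between mice. Cluster and library could not be separated in DMF-like cells, and RNA from other cells was neither estimated nor removed. UMIs give transcript levels, and neither secreted protein nor protease activity was measured.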
